A study of Homo sapiens with 3 samples.

Results

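YTHDC1 ChIP-seq peaks of A549 cells that lie beside the longest unassembled stretches of the genome are described here. YTHDC1 reads N6-methyladenosine (m6A), a methyl mark on RNA, inside the nucleus. A549 is a cell line established from an adenocarcinoma of the human lung. The samples were 3 replicates of 1 group of A549 cells, with no knockdown, drug or other treatment named in their labels. Chromatin was crosslinked with formaldehyde, sheared by sonication, incubated with the antibody and then collected on protein A/G beads. The replicates were pooled before peaks were called, so each peak has 1 value and no spread between samples, and there was no condition to compare. No expression values were analysed here, so the cell type could not be checked against marker genes.

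The members were all peaks within 5 Mb of a run of N of 1 Mb or more in hg19. There were 505 such peaks of 6368 in all (7.93%). The assembly had 27 such gaps, from 1.05 to 30 Mb long with a median of 3.10 Mb, on all 24 chromosomes, and 5 of them began at a chromosome's first base. The choice used position alone. The members just inside the limit lay near SUZ12 on chromosome 17 (4.99991 Mb from the gap, −log10 q 1.17), on chromosome 19 (4.98 Mb, 0.890) and at the start of AMBRA1 on chromosome 11 (4.98 Mb, 3.71). The nearest peaks outside it lay on chromosome 7 (5.003 Mb, 1.08), at ST3GAL6 on chromosome 3 (5.006 Mb, 1.33) and at ZFHX2 on chromosome 14 (5.02 Mb, 0.835).

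Most gaps of this size stand for centromeres, for the blocks of heterochromatin next to them, or for the short arms of acrocentric chromosomes. Human centromeres are built on alpha satellite, long arrays of a monomer of 171 bases. A part of the monomers carries the CENP-B box, the binding site of the centromere protein CENP-B. Other satellites beside centromeres are built on a 5-base unit, and transcripts of that kind collect in nuclear stress bodies after heat shock. In hg19 these arrays are mostly left out and only their edges are assembled, so sequence that fills long arrays in the cell is present in the reference in few copies. Reads from the copies left out can then be placed on the copies present or stay unplaced, and which of these happened here was not tested.

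The strongest YTHDC1 peaks of the whole set lay in such satellite edges, and their sequences are shown first because the other results turn on them. The following stretches of 171 bases, 1 from the strongest member with a CENP-B box in each of 6 chromosomes, are from the plus strand of GRCh37, with the 17 bases of the box in capitals.

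chr1:121484971-121485141: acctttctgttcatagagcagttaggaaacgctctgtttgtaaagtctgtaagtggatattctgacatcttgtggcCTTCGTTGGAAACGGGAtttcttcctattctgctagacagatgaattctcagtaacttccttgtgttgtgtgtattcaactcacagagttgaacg
chr7:61968909-61969079: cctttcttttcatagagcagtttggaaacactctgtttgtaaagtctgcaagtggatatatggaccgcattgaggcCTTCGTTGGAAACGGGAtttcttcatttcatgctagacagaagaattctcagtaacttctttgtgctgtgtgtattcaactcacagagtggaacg
chr6:58778178-58778348: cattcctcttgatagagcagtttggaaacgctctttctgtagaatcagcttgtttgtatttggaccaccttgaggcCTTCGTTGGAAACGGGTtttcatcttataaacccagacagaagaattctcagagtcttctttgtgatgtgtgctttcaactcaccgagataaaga
chr19:27731953-27732123: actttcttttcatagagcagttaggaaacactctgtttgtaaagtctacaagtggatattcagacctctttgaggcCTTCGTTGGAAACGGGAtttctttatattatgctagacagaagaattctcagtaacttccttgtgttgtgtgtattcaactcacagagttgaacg
chr10:42400314-42400484: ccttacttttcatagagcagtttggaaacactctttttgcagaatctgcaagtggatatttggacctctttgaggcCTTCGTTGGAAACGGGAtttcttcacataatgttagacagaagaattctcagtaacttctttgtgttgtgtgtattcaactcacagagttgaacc
chr2:92290996-92291166: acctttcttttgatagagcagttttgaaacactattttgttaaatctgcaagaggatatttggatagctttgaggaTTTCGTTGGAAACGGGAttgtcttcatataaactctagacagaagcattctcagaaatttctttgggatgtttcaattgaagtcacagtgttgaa

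The 6 stretches were 73.6% to 92.4% identical over 15 pairs, with a median of 80.5%. The chromosome 1 and chromosome 19 stretches were the closest pair, and the chromosome 6 and chromosome 2 stretches the most distant. They come from peaks with a −log10 q of 160.5 on chromosome 1, 148.3 on chromosome 7, 78.0 on chromosome 6, 48.6 on chromosome 19, 42.0 on chromosome 10 and 18.9 on chromosome 2. The box was searched on both strands as its defined core. At least 1 match was found in 21 of the 505 members (4.16%), against 7 of the 5863 peaks elsewhere (0.119%) and 28 of all peaks (0.440%). A match is a match of letters and not a measured site of CENP-B.

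The second set shows the other satellite. Each is a stretch of 150 bases from the plus strand of GRCh37, from the strongest member of this sort on 4 chromosomes, with each CATTC or GAATG unit in capitals. The 4 were picked from 8 chromosomes, and a chromosome 7 peak of this sort with a −log10 q of 4.79 is not shown.

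chr16:46403584-46403733: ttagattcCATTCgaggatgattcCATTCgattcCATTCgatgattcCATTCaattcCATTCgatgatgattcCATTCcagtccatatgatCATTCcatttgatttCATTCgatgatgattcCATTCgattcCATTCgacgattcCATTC
chrY:58838615-58838764: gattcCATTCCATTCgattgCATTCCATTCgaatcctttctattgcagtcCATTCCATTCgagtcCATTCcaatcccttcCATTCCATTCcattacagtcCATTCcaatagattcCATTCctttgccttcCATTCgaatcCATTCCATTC
chr10:42380219-42380368: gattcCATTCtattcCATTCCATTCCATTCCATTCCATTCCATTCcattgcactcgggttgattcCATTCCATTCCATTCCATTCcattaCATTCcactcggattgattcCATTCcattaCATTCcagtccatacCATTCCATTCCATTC
chr4:49110459-49110608: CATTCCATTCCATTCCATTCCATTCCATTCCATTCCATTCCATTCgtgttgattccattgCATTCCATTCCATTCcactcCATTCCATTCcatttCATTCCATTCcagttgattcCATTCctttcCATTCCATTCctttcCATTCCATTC

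These stretches held 11, 14, 17 and 21 units, in the order shown. Their peaks had a −log10 q of 48.7 on chromosome 16, 15.9 on chromosome Y, 4.39 on chromosome 10 and 2.88 on chromosome 4. In the chromosome 16 stretch most units stand singly, whereas in the chromosome 4 stretch most follow each other without a break. Units made up at least 10% of the bases in 28 members (5.54%), against 16 peaks elsewhere (0.273%) and 44 of all peaks (0.691%).

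Each peak was then compared by alignment with the strongest peak of either sort. The chromosome 1 peak was matched by 37 members, the chromosome 16 peak by 25, both by 0 and neither by 443. The chromosome 1 kind was found beside gaps on 12 chromosomes, at 72.0% to 100% identity, and reached up to 1.85 Mb from the gap. Of its 37 peaks, 26 were most alike with themselves at a shift of 166 to 176 bases with an identity of at least 40%, and 20 held a box. The range of shifts was centred on the most common shift of these same peaks, so the 26 are no independent result. Such a shift was found in 32 of the members (6.34%), against 39 of the peaks elsewhere (0.665%) and 1.11% of all peaks. A shift was scored only over at least 100 overlapping bases, so the narrowest peaks of every set could not be counted. In the chromosome 1 kind the lower quartile of width was 243 bases, which is too narrow for this. Whether such narrow peaks carry the repeat was therefore not tested. The shift alone does not mark the satellite either. Of the 39 peaks elsewhere with it, 37 were of neither kind, as were 4 of the 32 members. The highest identity at any shift had a median of 35.8% over all peaks, not far below the limit of 40%. The chromosome 16 kind was found on 8 chromosomes, at 67.3% to 100% identity, up to 0.740 Mb from the gap, and none of its peaks held a box. The identities of both kinds are those of the best local alignment, which could be much shorter than the peak. In the chromosome 16 kind it had 87 bases in a peak of 368 and 300 in one of 1841 on chromosome 1. On chromosome 17 it had 84 bases in a peak of 316. Elsewhere in the genome 2 peaks were of the chromosome 1 kind, side by side on chromosome 4 at 15.6 Mb from the gap (−log10 q 5.52 and 4.26), and none of the chromosome 16 kind.

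By peak strength, the highest ranks of the whole set were held by peaks beside the gaps. The deposited value was read as −log10 of the q-value because of its lowest value, and it is not labelled as such. On that reading 1.3 corresponds to a q-value of 0.05. The 5 strongest of all 6368 peaks were members, as were 9 of the top 10, 16 of the top 20, 36 of the top 100 and 80 of the top 500 (16%). Members with a −log10 q over 10 numbered 22, against 22 in all the rest of the genome. Per Mb of assembled sequence this was 12.2 times as many (95% interval 6.44 to 23.1). All intervals here cover counting error only.

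The strongest peak (chromosome 1, 121484241 to 121485481, 1241 bases) ran into the gap itself, with 47 bases of N inside it. It had a −log10 q of 160.5 and 2 boxes. The next (chromosome 7, 61968694 to 61969732) had 148.3 and lay 914362 bases from the gap as numbered in hg19, with a second peak at 61970160 to 61970583 (30.1). On chromosome 6 the peak at 58776777 to 58779469 was the widest member, with 2693 bases, 5 boxes and a −log10 q of 78.0, and it ended 697 bases before the gap. On chromosome 19 the peak at 27731953 to 27733360 (48.6, 4 boxes) began 170 bases after the gap. These 4 strongest peaks of the chromosome 1 kind were at least as wide as 1039 bases, against a median of 358 bases over the members.

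**Figure D1:**
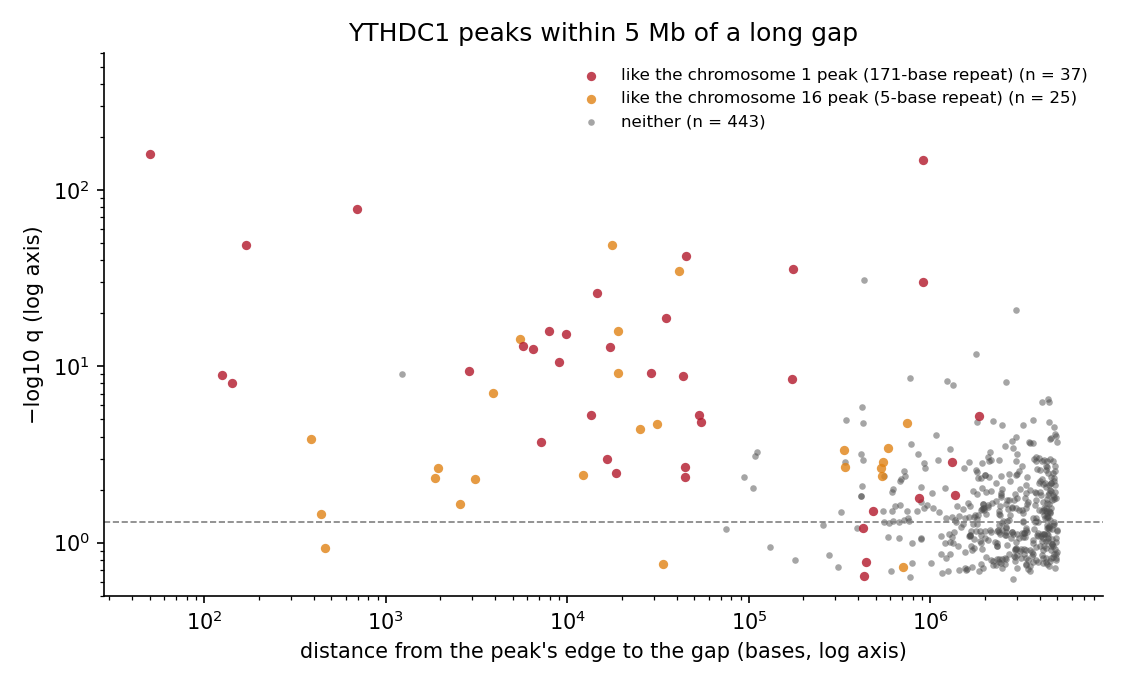
Each point is 1 of the 505 peaks within 5 Mb of a long gap, with its distance to the gap (x axis, bases, log axis; the peak that touches the gap is drawn at 50) and its −log10 q (y axis, log axis). The dashed line marks a q-value of 0.05; of the 22 points above 10, 15 are of the chromosome 1 kind (red) and 4 of the chromosome 16 kind (orange).

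The chromosome 1 kind had a median −log10 q of 8.76 (95% interval 4.83 to 12.8, n = 37), with a range of 0.643 to 160.5. The chromosome 16 kind had 2.88 (2.38 to 4.71, n = 25) and a range of 0.725 to 48.7. The 443 members of neither kind had 1.38 (1.31 to 1.5), against 1.32 (1.3 to 1.34) in the 5863 peaks elsewhere. Both satellite kinds spread widely. On chromosome 21, 4 peaks of the chromosome 1 kind at 10701557 to 10761120 had only 0.643 to 1.51, and 1 of the 4 had a q-value under 0.05.

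Several measures differed with distance to the gap. Within 100 kb there were 45 peaks, or 9.28 per Mb of assembled sequence (6.77 to 12.4), against 2.22 per Mb in the rest of the genome (2.16 to 2.27). From 0.1 to 0.5 Mb the density was 1.56 per Mb (1.04 to 2.26, 28 peaks), and between 0.5 and 5 Mb it ran from 2.12 to 2.27. At 5 to 10 Mb it was 2.35 (2.15 to 2.56, 496 peaks). Over the whole 5 Mb the members had 2.33 peaks per Mb (2.13 to 2.54), against 2.22 (2.16 to 2.28) elsewhere, a ratio of 1.05 (0.958 to 1.15). The density stood above the others in the first 100 kb. The interval of the ratio over the full 5 Mb included 1, whereas on the autosomes alone the ratio was 1.11 (1.01 to 1.22), with an interval above 1.

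Peak strength fell off over the same range. The median −log10 q was 8.08 within 100 kb (3.86 to 10.6), 2.08 at 0.1 to 0.5 Mb (1.26 to 3.2), 1.64 at 0.5 to 1 Mb (1.38 to 2.31) and 1.35 at both 1 to 2 Mb and 2 to 5 Mb, against 1.34 at 5 to 10 Mb. Of the members, 301 (59.6%, 55.3 to 63.8) had a q-value under 0.05, against 3016 (51.4%, 50.2 to 52.7) elsewhere and 52.1% of all peaks. Within 100 kb 42 of 45 did. Across the 505 members, Spearman's rho between distance and −log10 q was -0.23. Across the 443 members of neither kind it was -0.02. Of the 60 members of neither kind within 1 Mb, 73.3% (61.0 to 82.9) had a q-value under 0.05, against 55.3% (50.6 to 59.9) of all 443. The median −log10 q of those 60 was 1.64 (1.38 to 2.11). The points share 1 pooled library and are often neighbours, so the coefficients are descriptions.

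**Figure D2:**
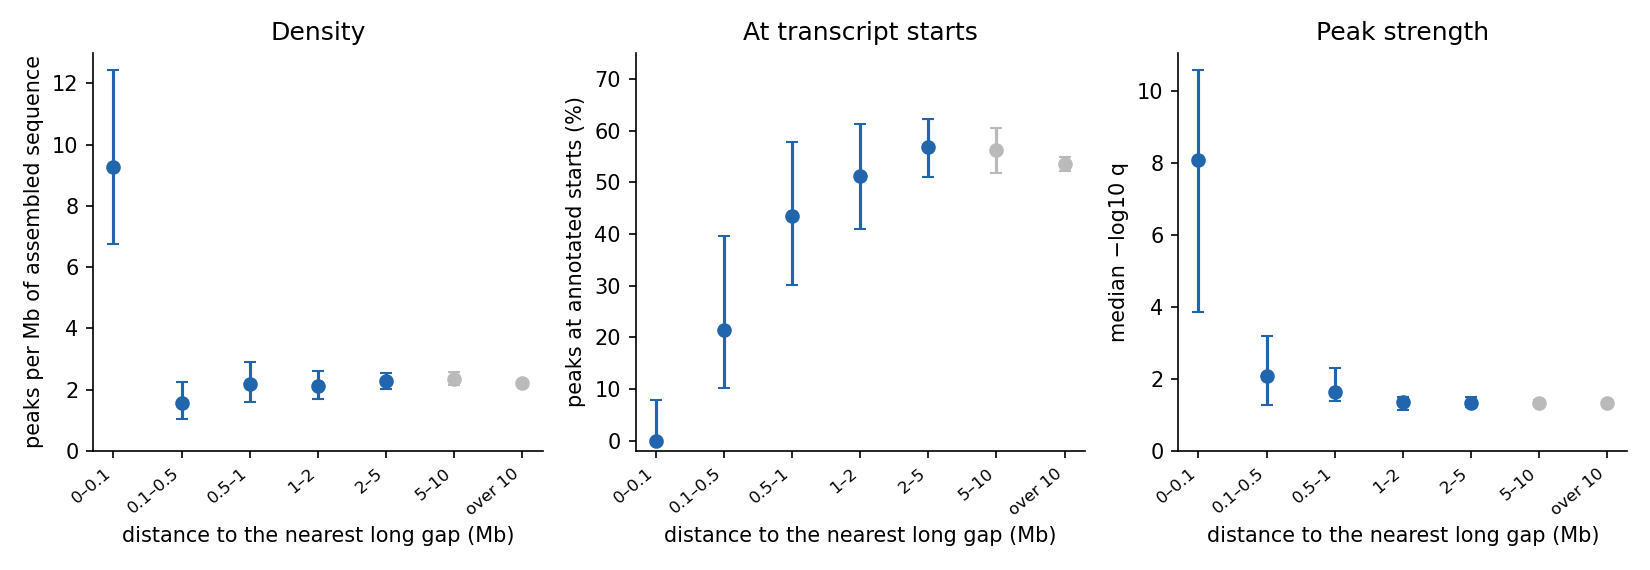
Peaks per Mb of assembled sequence (left), percent of peaks overlapping a window of 200 bases around an annotated transcript start (middle) and median −log10 q (right), each on the y axis, by distance to the nearest long gap (x axis, Mb). Blue points are the peaks within 5 Mb and grey points those farther away, with 95% intervals; within 100 kb the density is 9.28 per Mb, the share at starts 0% and the median 8.08.

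Of the 45 peaks within 100 kb, 42 were of the 2 satellite kinds, 25 of the chromosome 1 kind and 17 of the chromosome 16 kind. The 3 others had a −log10 q of 9.04 (chromosome 21, 11186551 to 11186902, 1227 bases from the gap), 2.37 (chromosome 21, 11093965 to 11094253) and 1.20 (chromosome 2, 91670191 to 91670684). Only 15 of the 49 gap sides with assembled sequence had a peak within 100 kb, whereas 47 had at least 1 member within 5 Mb. The 10 members nearest to a gap lay 0 to 1873 bases from it. Of these, 5 were of the chromosome 1 kind (chromosomes 1, 18, 8, 19 and 6, −log10 q 160.5, 8.95, 8.08, 48.6 and 78.0) and 4 of the chromosome 16 kind (chromosomes 16, 10, 1 and 17, with 3.86, 1.45, 0.927 and 2.32). At the shortest distances the chromosome 1 kind thus had the higher values. The 2 sides of 1 gap could differ. Beside the chromosome 16 gap, the side after it had 10 peaks within 100 kb and the side before it none.

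Some of the members stood in groups. Groups of at least 3 peaks at most 50 kb apart numbered 38 over the whole 5 Mb. They held 165 members (32.7%), against 1503 of the peaks elsewhere (25.6%). Of the 38 groups, 6 reached within 100 kb of a gap. The largest was the run of 10 peaks of the chromosome 16 kind between 46386187 and 46428535 on chromosome 16. In order along the chromosome their −log10 q was 3.86, 1.65, 7.04, 14.4, 2.43, 48.7, 9.22, 4.71, 0.760 and 34.6. Strong and weak peaks thus alternated within about 42 kb. Both kinds met on chromosome 10, where 3 peaks of the chromosome 16 kind (1.45, 2.29 and 4.39) were followed by 5 of the chromosome 1 kind (8.76, 2.68, 42.0, 5.27 and 4.83) between 42355373 and 42409455. On chromosome 2, 6 peaks of the chromosome 1 kind just before the gap had 18.9, 9.22, 2.48, 3.0, 15.2 and 13.0. Farther from the chromosome 10 gap, at 174261 bases, another peak of the chromosome 1 kind (42529197 to 42530040) had 35.7. On chromosome 11, 4 peaks had 26.0, 5.31, 3.71 and 9.43, and on chromosome 18, 3 peaks had 8.95, 15.9 and 10.6.

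Repeated sequence moved with these values. A member was counted as repeated if at least 50% of its 31-mers occurred more than once in the assembly. This held for 39 members (7.72%, 5.70 to 10.4), against 32 peaks elsewhere (0.546%) and 1.11% of all peaks. Of the 39, 29 were of the satellite kinds, and 25 lay within 100 kb of a gap. The median share of repeated 31-mers was 47.0% in the chromosome 1 kind and 52.5% in the chromosome 16 kind, against 0% in the members of neither kind. The highest shares were 100% (chromosome 11, 51586810 to 51587052, −log10 q 3.71), 98.4% (chromosome Y, 58838295 to 58838937, 15.9), 94.1% (chromosome 8, 43838511 to 43838745, 8.08), 91.8% (chromosome 16, 46391311 to 46392246, 14.4) and 90.3% (chromosome 16, 46389718 to 46390170, 7.04). The strongest peak of all had 30.0%, so strength did not follow the repeated share peak by peak. Over the members of neither kind, Spearman's rho between repeated share and −log10 q was 0.08, and over all members it was 0.32. Whether the number of copies left out of the assembly set the height of these peaks was not tested, and no input library was analysed against which satellite reads could be scaled.

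Base composition separated the kinds as well. The chromosome 1 kind had a median GC share of 37.7% and a CpG ratio, observed over expected, of 0.394. The chromosome 16 kind had 37.5% GC but a CpG ratio of 1.08. The members of neither kind had 61.0% GC and a ratio of 0.708, against 61.3% and 0.690 in the peaks elsewhere. All members together had 58.5% GC (56.3 to 60.2).

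**Figure D3:**
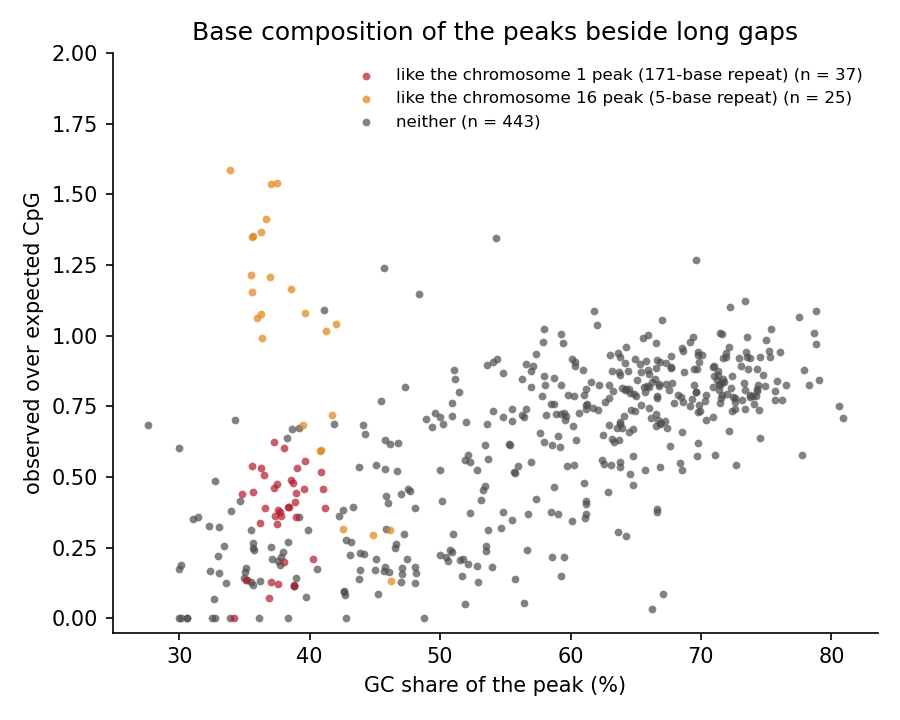
GC share (x axis, percent) and CpG ratio, observed over expected (y axis), of each of the 505 members. Red points are the 37 peaks of the chromosome 1 kind (median 37.7% GC, ratio 0.394), orange the 25 of the chromosome 16 kind (37.5%, 1.08) and grey the 443 of neither kind (61.0%, 0.708).

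By chromosome, the members were counted most often on chromosomes 20 and 17 (54 each) and 16 (53), which together held 161 (31.9%). Chromosome 11 had 36, chromosome 10 had 31, chromosome 2 had 29, chromosome 19 had 28, chromosome 14 had 26, chromosome 8 had 23 and chromosome 7 had 20. The others had 19 or fewer, down to 5 each on chromosomes 1 and X and 4 on Y. The order by number and the order by strength were not the same. Chromosome 20 had no peak of either kind, none within 100 kb of its gap and a highest −log10 q of 8.61, whereas chromosome 1 held the strongest peak of all among its 5 members.

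**Figure D4:**
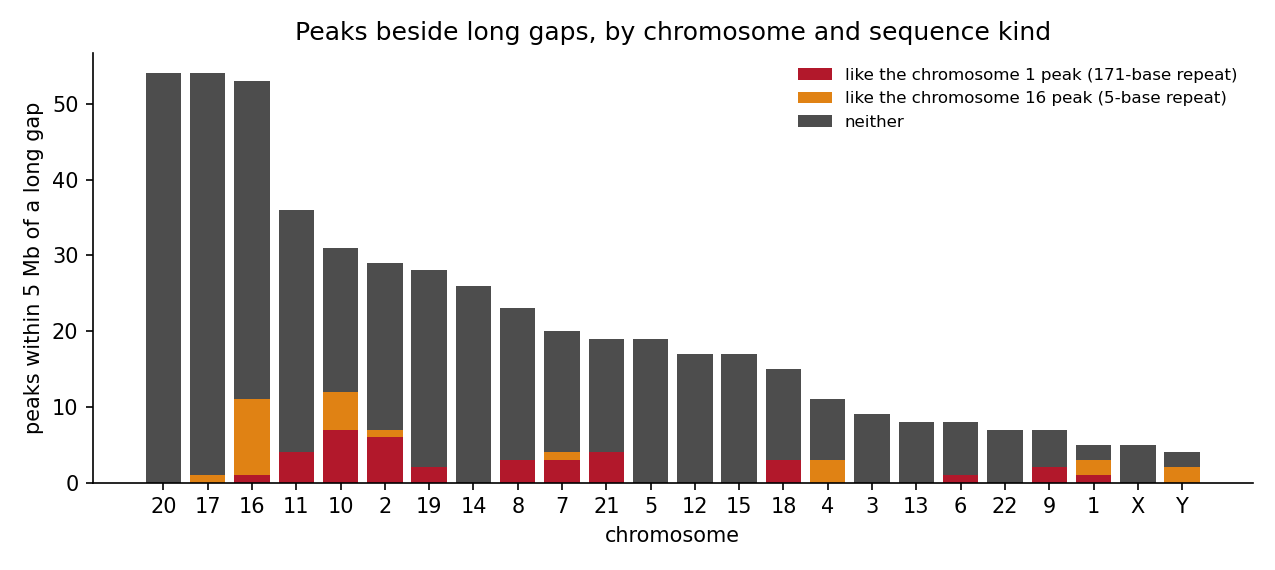
Number of peaks within 5 Mb of a long gap (y axis) on each chromosome (x axis, ordered by number), stacked by sequence kind (red, like the chromosome 1 peak; orange, like the chromosome 16 peak; grey, neither). Chromosomes 20 and 17 have 54 peaks each with at most 1 of either kind, and chromosome 10 has 12 of the 2 kinds among its 31.

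Against the rest of the same chromosome the density went either way. It was 5.48 peaks per Mb beside the gap (95% interval 4.12 to 7.15) and 4.11 farther away on chromosome 20, 5.38 (4.03 to 7.04) and 3.65 on chromosome 16, 5.20 (3.40 to 7.62) and 2.38 on chromosome 14, and 2.96 (1.78 to 4.62) and 1.53 on chromosome 21. It was lower beside the gap on chromosome 19, with 2.81 (1.87 to 4.07) and 9.55 per Mb, on chromosome 1, with 0.562 (0.182 to 1.31) and 2.06, and on chromosome 9, with 0.859 (0.345 to 1.77) and 2.96. On chromosomes 17 and X the intervals of the density beside the gap were 4.10 to 7.12 and 0.162 to 1.17, with 6.76 and 0.482 farther away. On chromosome 16 the 2 sides also differed in content. Before the gap 26 of 36 peaks lay at starts, whereas after it 4 of 17 did and 10 were of the satellite kind.

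Gene starts were examined with and without the satellite kinds. Of all 505 members, 240 (47.5%, 43.2 to 51.9) lay within 200 bases of an annotated transcript start, with an overlap of at least 1 base, against 3154 (53.8%, 52.5 to 55.1) elsewhere and 53.3% of all peaks. All 240 were of neither kind, which makes 54.2% (49.5 to 58.8) of the 443. The share grew with distance. It was 0 of 45 within 100 kb, which allows a share of up to 6.67% (3 counts of 45), then 21.4% (10.2 to 39.5), 43.5% (30.2 to 57.8), 51.1% (41.0 to 61.2) and 56.8% (51.1 to 62.3) at 2 to 5 Mb. Peaks in intergenic sequence by their midpoint made up 33.5% of members, against 18.9% (17.9 to 19.9) elsewhere, and 44 of the 45 within 100 kb. Among the 443 of neither kind the intergenic share was 24.4% (20.6 to 28.6).

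Members at starts had a median −log10 q of 1.38 (1.26 to 1.52), against 1.39 (1.36 to 1.42) at starts elsewhere. Their median width was 377 bases (349 to 407), against 374 (367 to 382), their GC share 65.9% against 66.2% and their CpG ratio 0.792 against 0.795. All of these intervals overlapped. Members away from starts had a median −log10 q of 1.65 (1.48 to 1.87), against 1.25 (1.22 to 1.27) away from starts elsewhere. With the kinds set aside the 203 remaining members away from starts had 1.40 (1.28 to 1.57). Away from starts the ratio of the density beside the gaps to that elsewhere was 1.19 (1.05 to 1.35), and with the satellite kinds set aside the ratio over all peaks was 0.922 (0.835 to 1.02).

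The zone held 6900 annotated genes, or 31.9 per Mb, against 21.8 per Mb elsewhere. Protein-coding genes had about the same density (6.65 and 7.09 per Mb), whereas pseudogenes were denser (12.6 and 4.8 per Mb). A gene was placed by its start nearest to a gap, and a peak at any of its starts counted. Peaks just outside the limit could thus count, as at ST3GAL6 and ZFHX2. Of 1441 protein-coding genes with a start in the zone, 219 (15.2%, 13.4 to 17.1) had a peak within 200 bases of a start, against 2944 of 18722 (15.7%, 15.2 to 16.3) elsewhere and 15.7% of all such genes. For 124 of the 219 (56.6%, 50.0 to 63) that peak had a q-value under 0.05, against 1682 of the 2944 (57.1%, 55.3 to 58.9) elsewhere. Among lncRNA genes it was 63 of 1641 (3.84%, 3.01 to 4.88), against 4.23% (3.94 to 4.54), and among pseudogenes 3 of 2719 (0.110%, 0.0375 to 0.324) against 0.331% (0.245 to 0.447). Within 100 kb of the gaps there were only 6 protein-coding genes, 1.24 per Mb, and 38 at 0.1 to 0.5 Mb. The density of coding genes thus grew with distance beside the share of peaks at starts, and the part of the one in the other was not tested.

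Among the peaks of neither kind, several with high values stood in a block on chromosome 21. There, beside the first chromosome 21 gap, 7 peaks between 9828135 and 9842235 had a −log10 q of 3.2, 1.84, 2.11, 5.87, 2.95, 4.8 and 31. The last 2 had 73.2% and 73.0% repeated 31-mers, and the first 5 at most 6.98%. METTL3, the enzyme that writes m6A, held a peak over an exon 2.97 Mb from the chromosome 14 gap (20.9), with no repeated 31-mers. ALKBH5, an m6A demethylase, held a member in its body with 0.819, a q-value above 0.05. A peak 703 bases from the nearest start of FOXI3, a forkhead transcription factor, had 11.8 and was named after its value was seen.

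At starts, ALDH3A1, an aldehyde dehydrogenase, had the strongest coding peak of the zone (8.19, 1420 bases wide, chromosome 17). The zinc finger gene ZNF629 followed with 6.30 and IMMT, a subunit of the complex that shapes mitochondrial cristae, with 6.26. TRAF4, a signalling adaptor, had 4.81, PABPN1, the nuclear poly(A)-binding protein, 4.51, and MAP2K3, a kinase of the p38 pathway, 4.06. A peak of 2473 bases on chromosome 20, over ID1, an inhibitor of basic helix-loop-helix factors, and the start of MIR3193, had 8.61. A peak of 2538 bases at TCIM on chromosome 8 had 2.91. Among the 5 widest members were also a peak of the chromosome 16 kind on chromosome 1 (142537374 to 142539214, 1841 bases, 2.65) and one in GGCX, a carboxylase gene, on chromosome 2 (1818 bases, 2.47). These values lay above the median of members at starts and below those of the satellite peaks of chromosomes 1, 7, 6 and 19.

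Several genes of chromosome duplication and repair were among those at a q-value under 0.05. ORC6, a subunit of the complex that marks replication origins, had 2.85 and was the bound coding gene in this group closest to a gap, at 0.338 Mb. GINS1, a subunit of the replicative helicase complex, had 2.64, POLB, the polymerase of base excision repair, 2.88, and PARP2, which senses DNA breaks, 1.89. Chromatin regulators included SRCAP, a remodeller that deposits H2A.Z (3.87), ASXL1 (2.65), the H3K9 demethylase KDM3A (2.61) and the H3K4 methyltransferase SETD1A (2.07). RNA-related genes included MAT2A, which makes the methyl donor S-adenosylmethionine (2.25), and SNRPD1, a core protein of spliceosomal snRNPs (2.24). These genes were picked by their known roles from the 124 and not by a list, so their number says nothing of how often such genes carry a peak.

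ZNF genes, which encode zinc finger proteins and cluster beside several centromeres, numbered 90 in the zone, and 17 (18.9%, 12.1 to 28.2) had a peak at a start, against 112 of 425 (26.4%, 22.4 to 30.7) elsewhere and 15.2% of all coding genes in the zone. Of the 17, 9 (52.9%, 31 to 73.8) had a q-value under 0.05, against 56.6% of all bound coding genes in the zone. ZNF33B (3.61), ZNF33A (3.19), ZNF25 (1.70) and ZNF37A (0.639) flanked the chromosome 10 gap within 1 Mb, and ZNF32 (2.59) lay 1.79 Mb from it. Of the families of duplicated genes common beside centromeres, such as POTE, ANKRD20A, NBPF and GOLGA8, 119 genes had a start in the zone. Counting only peaks within 200 bases of a start, and not those in gene bodies, 0 of the 119 had one. This allows a share of up to 2.52% (3 counts of 119). Of the 119, 50 were protein-coding. Elsewhere 2 of 123 (1.63%) had one. Over all genes it was 297 of 6900 in the zone (4.30%) and 6.36% in the genome. No such peak was found at the 64 ribosomal RNA genes in the zone (up to 4.69%) or at 25 U1 snRNA genes (up to 12.0%). Elsewhere 2 of 469 and 1 of 116 had one. None of these genes codes for protein, and of all 198 snRNA genes in the zone 2 (1.01%) had such a peak. Reads from copies that are nearly identical may be placed on any of them or dropped. How they were placed is not given in the sources used here, and its part in these counts was not tested.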

How the data were processed

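The 3 YTHDC1 ChIP-seq replicates of A549 cells were pooled by the authors before broad peaks were called with MACS2 (q-value of 0.1, broad cutoff of 0.25) on hg19. The aligner is Bowtie2 in the methods and BWA in the submitters' processing notes, which also list deepTools. Depth per sample is unknown. Whether a control library entered the peak calling, and how reads with several matches were placed, is not given in the sources used here. Column 5 of the deposited file was read as −log10 of the q-value, because its lowest value, 0.610, lies just above 0.602, the −log10 of the broad cutoff. The peak names point to a merging step that is not described, and their running number reaches 6374.

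Gaps were runs of N of 1 Mb or more in GRCh37, the assembly behind hg19. The first 2.65 Mb of Y, masked in the copy used, was not counted. A distance ran from the nearest edge of a peak. Starts came from GENCODE release 44 mapped to GRCh37, and a peak within 200 bases of one, by an overlap of 1 base, counted as at a start. A 31-mer was called repeated if it occurred more than once in the assembly on either strand. Sequence kinds were set with blastn 2.17.0 (E-value 1e-05) against the strongest peaks of chromosomes 1 and 16. Self-similarity was the highest identity of a peak with itself at shifts of 2 to 200 bases, over at least 100 bases. Monomers were aligned globally with Biopython 1.88.

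Shares carry Wilson, densities exact Poisson, density ratios exact binomial and medians order-statistic intervals, all at 95%. They cover counting error only, since peaks of 1 pooled set are not replicates, and nothing in the labels says that the replicates came from separate cultures. No test was run. Functions were checked on made-up data with known answers (Python 3.11.15, numpy 2.4.6, pandas 2.3.3, scipy 1.17.1, numba 0.67.0, matplotlib 3.10.9). The members and lists were chosen with earlier results of these data known, and the sequence kinds, clusters, m6A genes and FOXI3 were chosen after their values were seen. Named peaks were the 10 strongest, 10 nearest to a gap, 5 widest, 5 most repeated and 6 around the limit. Protein-coding genes with a start overlapped by a member at a q-value under 0.05 could also be named, as could members of the gene lists. Alternatives covered the distance, gap length, start window, q-value, chromosomes and sequence kinds.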

Additional observations from a re-analysis of the deposited data

How the results depend on the processing

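No paired analysis was possible because the replicates were pooled before peak calling. With the distance limit at 1, 2 and 10 Mb the members numbered 119, 209 and 1001, and 301 had a q-value under 0.05. The share at starts was 21.8% and 34.4% at limits of 1 and 2 Mb, 33.7% with the midpoint in the window, 42.2% with protein-coding starts only, and 53.1% and 57.6% with windows of 500 and 1000 bases. Under these 4 changes of window it was below the share elsewhere each time (38.1%, 47.5%, 62.5% and 67.3%). The median −log10 q was 2.48 and 1.65 at 1 and 2 Mb, and 2.19 among peaks at a q-value under 0.05, whose median width was 383 bases. The share under 0.05 was 81.5% and 68.9% at 1 and 2 Mb, and the median share of repeated 31-mers 18.1% at 1 Mb. The density ratio was 1.22 at 1 Mb, 1.22 at a q-value under 0.05, 1.19 away from starts and 1.11 (1.01 to 1.22) on the autosomes alone. Leaving out the satellite kinds was an alternative chosen after seeing the data. It gave a share at starts of 54.2% (49.5 to 58.8), a median −log10 q of 1.38 and a density ratio of 0.922 (0.835 to 1.02). The share and the ratio thus moved to the other side of the 53.8% elsewhere and of 1, but both of these lay inside the intervals. The ratio was also below 1 among peaks with under 50% repeated 31-mers (0.975, 0.885 to 1.07) and without chromosome 20 (0.9996, 0.906 to 1.10). These intervals included 1 as well. Gaps of 500 kb or more gave the same 505 peaks, and counting the masked start of Y, also added later, gave 506. Without a control library or values per replicate, neither enrichment over input nor reproducibility could be measured, and depth is unknown.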
